A study of Homo sapiens with 8 samples.

Results

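The 9 genes described here handle riboflavin, vitamin B2, and the cofactors made from it. They were chosen by name, as a group with a known role, while earlier results of these data were known: the riboflavin carriers SLC52A1, SLC52A2 and SLC52A3, the cofactor-making enzymes RFK and FLAD1, the mitochondrial carrier SLC25A32, the cofactor-splitting enzymes ENPP1 and ACP5, and the flavin reductase BLVRB. Each of the 9 was found once among the 62649 genes of the deposited table. RNA was sequenced from AsPC-1 and PANC-1, 2 established human pancreatic cancer lines that the labels give as wild type. Cells grew as spheroids for 3 days in a medium containing methylcellulose and were then treated for 24 h. In each line 1 library came from cells given the vehicle, 1 from cells given roseoflavin at 10 µM, 1 from cells given trametinib at 1 nM and 1 from cells given both, which makes 8 libraries. Roseoflavin is an antibiotic analogue of riboflavin, and trametinib inhibits the MEK kinases of the MAPK pathway. No group had a replicate, and the labels do not say whether the libraries of a line came from separate cultures.

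Mammalian cells cannot make riboflavin and take it up through the SLC52A carriers. RFK, riboflavin kinase, adds a phosphate to give FMN, and FLAD1, FAD synthase, joins FMN to an AMP unit to give FAD. FMN and FAD are the redox cofactors of the flavoproteins, among them enzymes of respiration, fatty acid oxidation and antioxidant defence. Both RFK and FLAD1 can also accept roseoflavin, so the same steps that make the cofactors can make their roseoflavin analogues. Which levels of these genes the 2 lines started from, and whether either compound was followed by other levels, are the comparisons made here.

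Levels are in TPM, a share of all transcripts corrected for transcript length, which therefore allows one gene to be compared with another. How deeply the libraries were sequenced cannot be read from TPM and is unknown here. Each library summed to 1000000 TPM, and between 15280 and 17201 genes reached 1 TPM. Mitochondrially encoded transcripts made up 41.2% to 44.1% of the AsPC-1 total but 22.8% to 25.6% of the PANC-1 total, and TPM of all other genes scale with what remains. Of 6 epithelial markers, KRT8, KRT18 and KRT19 reached at least 852 TPM in every library and KRT7 only 3.26 to 7.74 TPM, while EPCAM (1224 to 1485 against 14.5 to 16.8 TPM) and CDH1 (56.1 to 78.7 against 5.02 to 6.55 TPM) were much higher in AsPC-1. All 6 passed as lower in PANC-1 in the test described next. Of 4 mesenchymal markers, VIM and ZEB1 passed as higher in PANC-1, and FN1 stayed at 0.533 TPM or less. CDH2, listed at 0 in AsPC-1, passed as well but entered that test through its PANC-1 values alone. The leukocyte marker PTPRC was at 0.019 TPM or less and the endothelial marker PECAM1 at 0.038 TPM or less, with CD3E listed at 0 throughout and VWF at 0.082 TPM or less. Of 4 fibroblast markers, COL1A1 lay at 98.9 to 107 TPM in PANC-1 and at most 0.121 TPM in AsPC-1, LUM at 103 to 146 TPM in AsPC-1 and at most 0.039 TPM in PANC-1, COL1A2 at most 0.027 TPM and PDGFRB at most 0.892 TPM. CD68, a macrophage marker, lay between 108 and 139 TPM in both lines. The part of these markers in the results was not tested.

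Differences were tested on log2(TPM + 1) with limma, a linear model fitted to all genes at once, with Benjamini-Hochberg adjustment over 19122 genes that reached 1 TPM in 2 libraries or more. The threshold was an adjusted p of 0.05. Of the 9 genes 7 passed this filter. SLC52A1 reached 1 TPM in 1 library and ACP5 in 0, so neither entered the main tests. In every test the other treatments or the other line stand in for replicates, and the p-values measure only the spread between these libraries.

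Of the 7 tested genes, the riboflavin carriers SLC52A3 and SLC52A2 differed most between the lines, both higher in AsPC-1. SLC52A2, the broadly expressed carrier, was at 103.6, 96.6, 87.2 and 99.6 TPM in AsPC-1 with vehicle, roseoflavin, trametinib and both compounds. In PANC-1 it was at 34.3, 32.7, 34.2 and 35.5 TPM in the same order. All 4 AsPC-1 libraries lay above all 4 PANC-1 libraries, and the mean was 2.83 times as high in AsPC-1 (96.8 ± 6.98 against 34.2 ± 1.18 TPM, SD over the 4 treatments). SLC52A3, the carrier known for uptake across the intestinal epithelium, was at 16.0, 14.4, 14.9 and 16.4 TPM in AsPC-1 and at 2.66, 2.98, 2.83 and 2.55 TPM in PANC-1. Its AsPC-1 mean was 5.603 times the PANC-1 mean, again with no overlap. SLC52A1, the carrier best known from placenta and intestine, was lowest of the 3, at 0.477, 0.309, 0.610 and 0.354 TPM in AsPC-1, while PANC-1 had 0.764, 0.948, 1.02 and 0.941 TPM. It was the only carrier of the 3 with the higher values in PANC-1. With no filter on low values its difference of 0.42 on the log2(TPM + 1) scale (SE 0.0811) passed (limma adjusted p 0.00512). Of all genes 18807 of 33423 passed there. With mitochondrial transcripts removed from the TPM it was 0.34 (limma adjusted p 0.0333), only 0.12 above the median of all genes. SLC52A1 met the filter of that test through PANC-1, where it was higher, so this call is no separate support.

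Added together, the 3 carriers reached 102.8 to 120 TPM in AsPC-1 against 36.6 to 39.0 TPM in PANC-1. SLC52A2 supplied most of this sum in every library, 84.9% to 86.8% for AsPC-1, 89.3% to 91.1% for PANC-1. SLC52A3 supplied 12.9% to 14.5% for AsPC-1, against 6.53% to 8.13% for PANC-1. SLC52A2 thus led in both lines, at different summed levels.

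**Figure D1:**
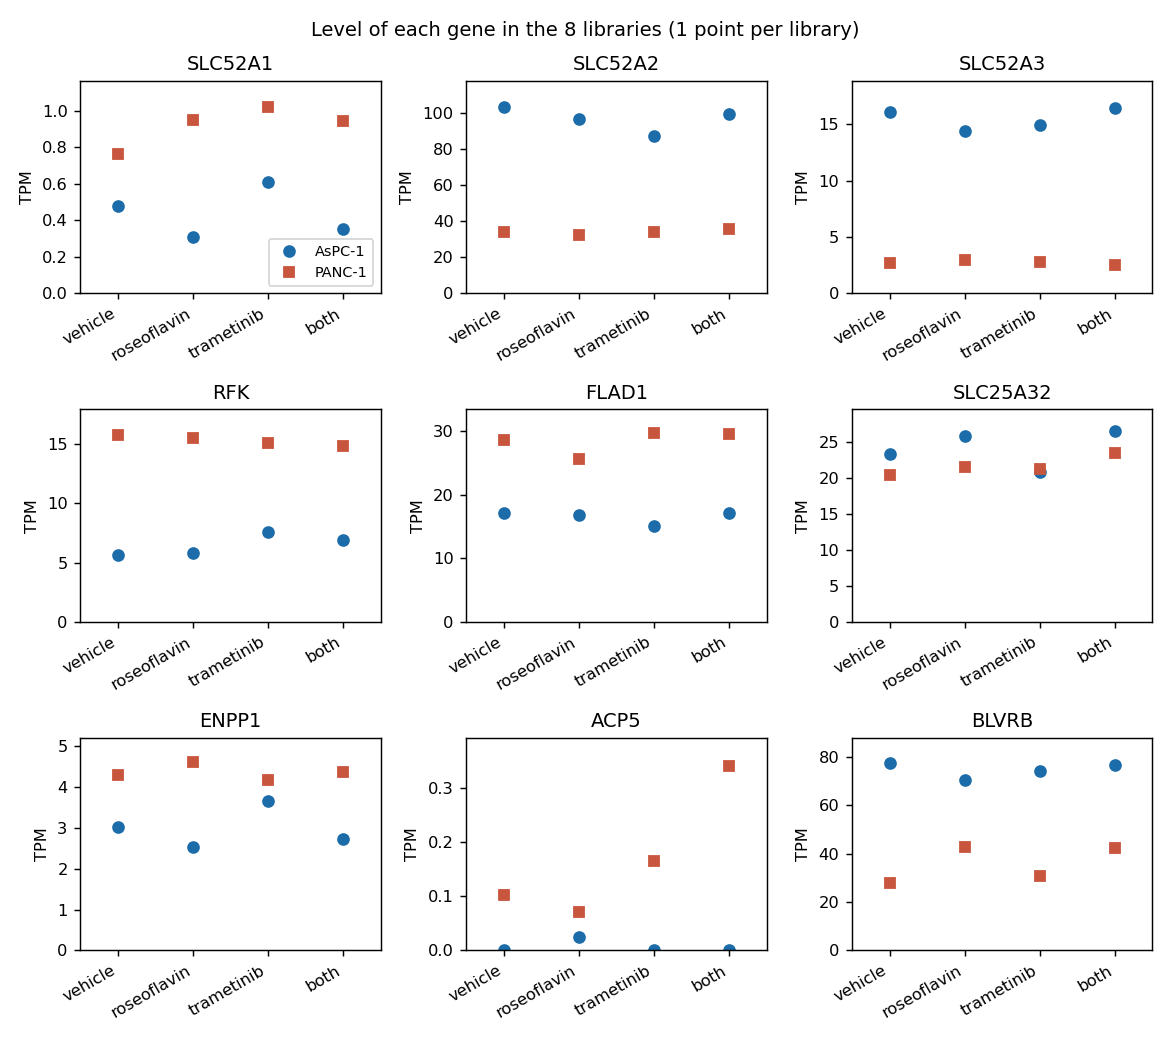
TPM of each of the 9 genes (y axis, from 0, with its own range in each panel) by treatment (x axis), with 1 circle per AsPC-1 library and 1 square per PANC-1 library. SLC52A2, SLC52A3 and BLVRB lay higher in AsPC-1 and RFK, FLAD1 and ENPP1 higher in PANC-1 in all 4 treatments, and BLVRB in PANC-1 was at 42.7 and 42.3 TPM with roseoflavin against 28.0 and 30.7 TPM without it.

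The enzymes that make the cofactors went the other way in TPM. RFK was at 5.62, 5.77, 7.53 and 6.87 TPM in AsPC-1 and at 15.7, 15.4, 15.02 and 14.8 TPM in PANC-1, with vehicle, roseoflavin, trametinib and both. Its PANC-1 mean was 2.37 times its AsPC-1 mean, and the libraries did not overlap. FLAD1 was at 17.1, 16.9, 15.1 and 17.2 TPM in AsPC-1 and at 28.7, 25.6, 29.6 and 29.5 TPM in PANC-1, a ratio of 1.71 with no overlap. FLAD1 exceeded RFK in every library, by 2.00 to 3.04 times in AsPC-1 and by 1.65 to 1.99 times in PANC-1. In AsPC-1 the carrier SLC52A2 stood at 11.6 to 18.4 times the level of RFK, and in PANC-1 at 2.11 to 2.40 times.

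SLC25A32, which carries FAD and folate across the inner mitochondrial membrane, was the member with the closest levels in the 2 lines. It was at 23.3, 25.7, 20.8 and 26.5 TPM in AsPC-1 and at 20.4, 21.5, 21.3 and 23.5 TPM in PANC-1, and the lines overlapped. On the same strand it overlaps AC012213.5, a gene listed at 25.4 to 32.9 TPM (AsPC-1) or 24.98 to 28.2 TPM (PANC-1), and how reads shared by the pair were assigned is not given in the sources used here. SLC52A2 overlaps FBXL6 on the opposite strand (29.5 to 38.6 TPM in AsPC-1, 11.4 to 14.8 TPM in PANC-1). The library kit keeps the strand, but whether the counting used it is not stated. Part of the SLC52A2 signal could thus belong to FBXL6, and likewise for SLC25A32 with DCAF13 and ACP5 with ZNF627.

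ENPP1, a surface enzyme that splits nucleotides and can cleave FAD to FMN, was at 3.01, 2.53, 3.66 and 2.72 TPM in AsPC-1 and at 4.29, 4.62, 4.17 and 4.37 TPM in PANC-1. ACP5, an acid phosphatase best known from osteoclasts that can release riboflavin from FMN, was listed at 0 in 3 AsPC-1 libraries and at 0.025 TPM in the library with roseoflavin. In PANC-1 it was at 0.102, 0.071, 0.165 and 0.340 TPM. BLVRB, which reduces flavins with NADPH and also acts as a biliverdin reductase, was at 77.4, 70.4, 74.1 and 76.8 TPM in AsPC-1 and at 28.0, 42.7, 30.7 and 42.3 TPM in PANC-1.

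The order of the mean levels differed between the lines. In AsPC-1 it ran from SLC52A2 through BLVRB (mean 74.7 TPM), SLC25A32 (24.1), FLAD1 (16.5), SLC52A3 (15.4), RFK (6.45), ENPP1 (2.98) and SLC52A1 (0.438) to ACP5. Among these neighbours only FLAD1 and SLC52A3 overlapped over the 4 libraries. In PANC-1 it ran from BLVRB (mean 35.9 TPM) and SLC52A2 (34.2) through FLAD1 (28.3), SLC25A32 (21.7), RFK (15.3), ENPP1 (4.36), SLC52A3 (2.75) and SLC52A1 (0.918) to ACP5 (0.170). There BLVRB overlapped with both SLC52A2 and FLAD1, and no other neighbours overlapped.

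In limma 6 of the 7 tested genes passed for the difference between the lines, 3 higher and 3 lower in PANC-1. Among all 19122 genes 83.8% passed, 62.3% higher and 21.5% lower in PANC-1, so 6 of 7 is near the background. The same 6 had an unadjusted p under 0.05, as did 84.5% of all genes. The 4 libraries of one line did not overlap with the 4 of the other for these 6 either, as for 79.2% of all genes. On the log2(TPM + 1) scale the PANC-1 minus AsPC-1 difference was -2.13 (SE 0.0672) for SLC52A3, -1.47 (SE 0.0624) for SLC52A2 and -1.06 (SE 0.121) for BLVRB. It was 1.13 (SE 0.0819) for RFK, 0.74 (SE 0.0694) for FLAD1 and 0.44 (SE 0.0916) for ENPP1. The adjusted p was 2.70e-07, 1.04e-06, 0.000163, 1.47e-05, 5.79e-05 and 0.00372 in that order. SLC25A32 differed by -0.14 (SE 0.0587) and did not pass (adjusted p 0.0592). In these bulk libraries less RNA per cell and fewer cells that carry it cannot be told apart.

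The median of all 19122 genes was itself 0.55 higher in PANC-1, so each difference is also given relative to that median. It was then -2.68 for SLC52A3, -2.03 for SLC52A2, -1.61 for BLVRB, -0.70 for SLC25A32, -0.12 for ENPP1, 0.19 for FLAD1 and 0.58 for RFK. With TPM rescaled after the mitochondrial transcripts were removed, all genes moved by a median of -0.35, and after quantile normalization by -0.52. SLC52A2, SLC52A3, BLVRB, RFK and FLAD1 kept their direction and passed under both, and SLC25A32, lower in PANC-1 by 0.52 and 0.65, passed as well (adjusted p 0.000250 and 4.97e-05). FLAD1 differed by only 0.37 and 0.23 there (adjusted p 0.00316 and 0.0233). ENPP1 lost its call under both, at 0.14 (adjusted p 0.211) and, with the sign turned, -0.14 (adjusted p 0.163).

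**Figure D2:**
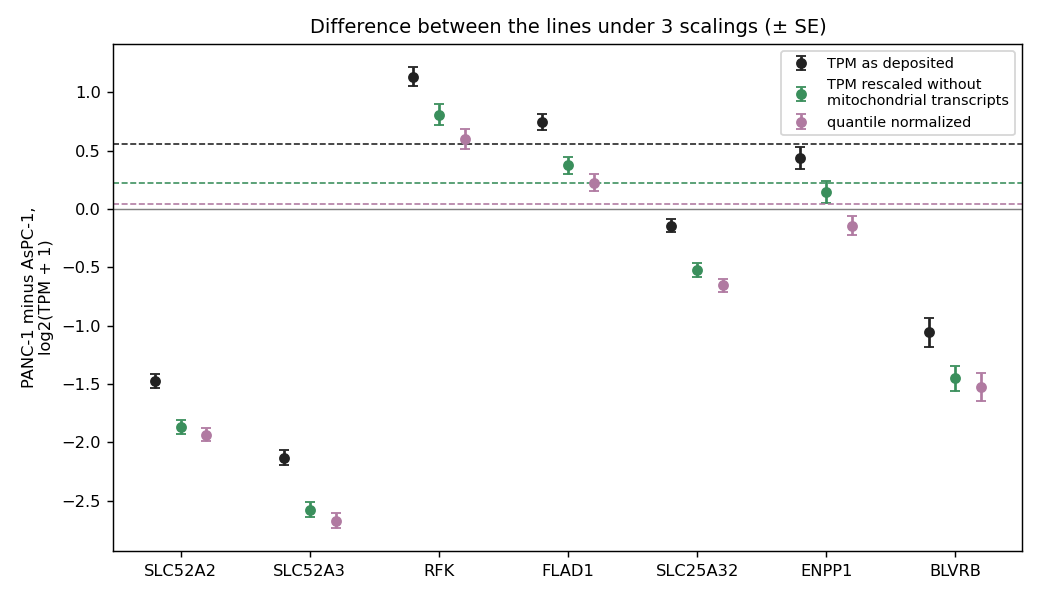
PANC-1 minus AsPC-1 difference on the log2(TPM + 1) scale (y axis) for the 7 tested genes (x axis) under 3 scalings, as points with the SE from limma as bars and the median of all genes as a dashed line in the same colour. SLC52A2, SLC52A3 and BLVRB lay below 0 and below the median under each scaling, RFK above both, and ENPP1 crossed 0 under quantile normalization.

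RFK and FLAD1 act in sequence and were both higher in PANC-1 under each scaling. FLAD1 lay only 0.16 to 0.19 above the median of all genes, and shared control of the pair was not tested. The sequence before each start site is shown. These are the 250 bases upstream of the RefSeq start on GRCh38.p14, 5′ to 3′ on the gene's strand, for RFK at chr9:76394427-76394676 (minus strand) and for FLAD1 at chr1:154983094-154983343 (plus strand). Capitals mark matches to any of 4 motifs searched on both strands.
RFK: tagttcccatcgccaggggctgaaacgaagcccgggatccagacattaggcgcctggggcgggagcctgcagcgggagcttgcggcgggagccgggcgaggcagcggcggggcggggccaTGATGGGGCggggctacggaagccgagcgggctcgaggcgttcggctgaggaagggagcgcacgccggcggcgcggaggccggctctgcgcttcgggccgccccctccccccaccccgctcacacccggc
FLAD1: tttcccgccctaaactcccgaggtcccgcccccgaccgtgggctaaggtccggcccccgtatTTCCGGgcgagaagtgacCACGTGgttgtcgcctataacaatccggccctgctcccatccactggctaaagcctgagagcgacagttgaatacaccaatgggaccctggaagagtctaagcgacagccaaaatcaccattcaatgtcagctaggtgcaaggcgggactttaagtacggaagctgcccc
The motifs were the antioxidant response element TGANNNNGC, the hypoxia response element ACGTG, the ATF4 element TGATGNAA and the ETS core CCGGAA. RFK holds 1 match, TGATGGGGC of the antioxidant type, 130 bases before the start. FLAD1 holds the palindrome CACGTG, which reads as the hypoxia letters on both strands, and 1 ETS core on the opposite strand. A match of these letters is common: among 35116 promoter windows, 35.2% held the antioxidant letters in the same 250 bases, 18.5% the hypoxia letters, 14.5% the ETS core and 3.14% the ATF4 element.

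The next comparison was roseoflavin within each line, with the library given roseoflavin set against the one without, once in the absence and once in the presence of trametinib. BLVRB in PANC-1 showed the largest difference of the 7 tested genes on the log2(TPM + 1) scale. It was at 28.0 TPM with vehicle and 42.7 TPM with roseoflavin, and at 30.7 TPM with trametinib and 42.3 TPM with both. The 2 libraries with roseoflavin lay above the 2 without it, at 1.52 and 1.38 times the level of their partners. In AsPC-1 the same pairs were 77.4 and 70.4 TPM, and 74.1 and 76.8 TPM, and they overlapped.

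The fitted roseoflavin difference of BLVRB was 0.52 on the log2(TPM + 1) scale in PANC-1 (SE 0.0690, 95% interval 0.33 to 0.71). It was the 124th smallest p-value of the 19122 genes but did not pass (limma p 0.00184, adjusted p 0.280). In AsPC-1 the difference was -0.04 (SE 0.0690, 95% interval -0.24 to 0.15, adjusted p 0.877). The test of the difference between the lines gave 0.56 (SE 0.0976, unadjusted p 0.00488) and did not pass either (adjusted p 0.336). Over both lines the difference was 0.24 (SE 0.121, adjusted p 0.736), and 0.15 without the PANC-1 library given vehicle or the one given roseoflavin. With mitochondrial transcripts removed, or after quantile normalization, the PANC-1 value lay between 0.49 and 0.54. The 3 genes most like BLVRB over the 8 libraries after each line's mean was removed were RPL10A (Pearson r 0.991), RPLP0 (0.988) and TMEM37 (0.986), out of 8630 genes whose mean reached 10 TPM, and these values share their libraries and scaling.

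Of the 7 tested genes BLVRB had the largest fitted difference with roseoflavin, in PANC-1 and on the log2(TPM + 1) scale. The 250 bases before its RefSeq start, at chr19:40465746-40465995 on the minus strand of GRCh38.p14, read 5′ to 3′ as follows, with no capitals because none of the 4 motifs matched there.
BLVRB: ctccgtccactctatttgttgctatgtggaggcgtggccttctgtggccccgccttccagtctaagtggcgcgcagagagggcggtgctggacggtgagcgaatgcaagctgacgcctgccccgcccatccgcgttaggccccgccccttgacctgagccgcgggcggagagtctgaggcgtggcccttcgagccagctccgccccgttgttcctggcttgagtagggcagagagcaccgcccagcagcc
The absence of a match says only that these letters are not in this window. Of the stretch, 67.2% is G or C, against 76.0% for RFK and 58.0% for FLAD1. Promoter windows were found for 5 of the 9 genes.

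In the breakdown of heme, the heme oxygenases HMOX1 and HMOX2 open the ring to biliverdin, which BLVRA reduces. BLVRB is also a biliverdin reductase, but of other forms of biliverdin than the main product of these oxygenases. HMOX1 was at 273 TPM with vehicle and 657 TPM with roseoflavin in PANC-1, and at 257 TPM with trametinib and 668 TPM with both. Its fitted difference there was 1.32 (SE 0.109, limma adjusted p 0.221), and in AsPC-1, where it stayed between 8.38 and 12.6 TPM, -0.17 (SE 0.109, adjusted p 0.607). HMOX2 lay between 38.5 and 40.5 TPM in PANC-1 and between 50.2 and 61.8 TPM in AsPC-1. BLVRA lay between 88.4 and 91.2 TPM in PANC-1 and between 24.0 and 30.7 TPM in AsPC-1. In PANC-1 HMOX1 and BLVRB were thus higher with roseoflavin in both pairs, whereas HMOX2 was lower in both and BLVRA higher in 1 and lower in the other, and none of the 4 passed.

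**Figure D3:**
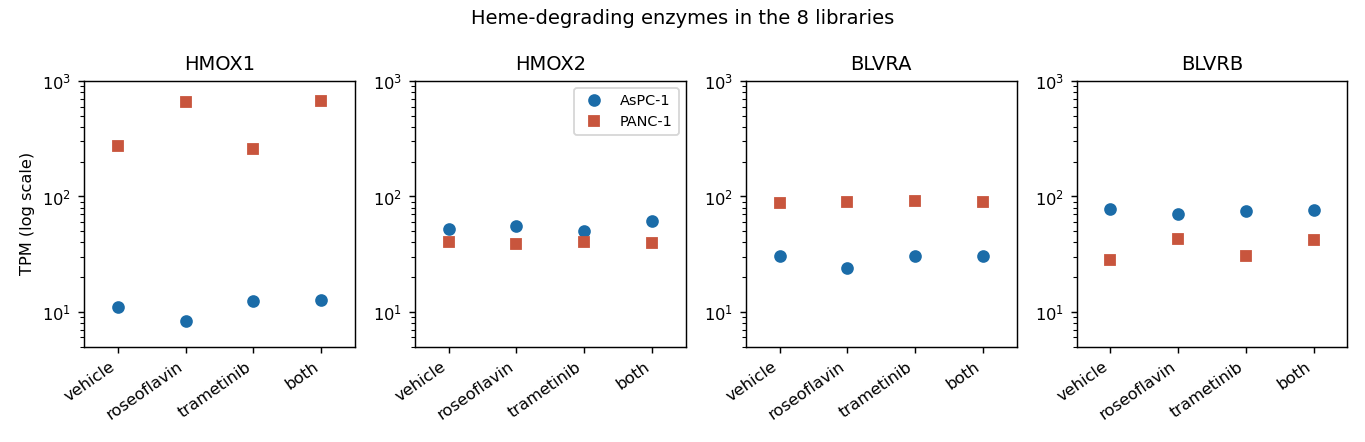
TPM on a log scale (y axis) of the heme oxygenases HMOX1 and HMOX2 and the biliverdin reductases BLVRA and BLVRB by treatment (x axis). There is 1 circle per AsPC-1 library and 1 square per PANC-1 library. In PANC-1 HMOX1 was at 657 and 668 TPM with roseoflavin against 273 and 257 TPM without it, next to BLVRB at 42.7 and 42.3 against 28.0 and 30.7 TPM.

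SLC25A32 was higher with roseoflavin in all 4 matched pairs, the only one of the 7 tested genes to be so. Of the 19122 genes 4.91% were higher in all 4 and 10.2% lower, and 0 of the 7 were lower. The ratio was 1.11 without and 1.27 with trametinib in AsPC-1. In PANC-1 it was 1.05 and 1.104. In each line the 2 libraries with roseoflavin lay above the 2 without it. The fitted difference was 0.24 in AsPC-1 (SE 0.0656, limma adjusted p 0.397), 0.10 in PANC-1 (SE 0.0656, adjusted p 0.620) and 0.17 over both (SE 0.0587, adjusted p 0.673), and none passed. Without the AsPC-1 library given trametinib, or the one given both, the AsPC-1 value was 0.14, and without the former the value over both lines was 0.11. In PANC-1 it was 0.07 with mitochondrial transcripts removed. Its nearest patterns were those of LRRC20 (Pearson r 0.984 over the 8 libraries), ALG3 (0.970) and FASN (0.967).

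ENPP1 was lower with roseoflavin in AsPC-1, at 2.53 against 3.01 TPM without trametinib and 2.72 against 3.66 TPM with it. In PANC-1 it was higher, at 4.62 against 4.29 TPM and 4.37 against 4.17 TPM. The fitted differences were -0.25 (SE 0.0733, limma adjusted p 0.403) and 0.07 (SE 0.0733, adjusted p 0.760), and their difference was 0.33 (SE 0.104, adjusted p 0.403). None passed.

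SLC52A2, SLC52A3, RFK and FLAD1 overlapped between libraries with and without roseoflavin in both lines. SLC52A2 was at 0.933 and 1.14 times its partner in AsPC-1 and at 0.951 and 1.04 times in PANC-1. SLC52A3 was at 0.895 and 1.1001 times in AsPC-1 and at 1.12 and 0.901 times in PANC-1. For each carrier the 2 pairs of a line went in opposite directions. RFK was at 1.03 and 0.912 times in AsPC-1 and at 0.981 and 0.986 times in PANC-1. FLAD1 was at 0.989 and 1.14 times in AsPC-1 and at 0.892 and 0.996 times in PANC-1. The 95% intervals of the fitted difference in PANC-1 were -0.25 to 0.24 for SLC52A2, -0.29 to 0.30 for SLC52A3, -0.19 to 0.15 for RFK and -0.29 to 0.13 for FLAD1. In AsPC-1 they were -0.20 to 0.29, -0.31 to 0.29, -0.21 to 0.13 and -0.13 to 0.29 in the same order. SLC52A1, below the filter, was at 0.648 and 0.580 times its partner in AsPC-1 and at 1.24 and 0.922 times in PANC-1.

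Counted together, 2 of the 7 tested genes (28.6%) had libraries with and without roseoflavin that did not overlap in AsPC-1, where 32.3% of the 19122 genes did, and 3 of 7 (42.9%) in PANC-1, where 45.5% did. In limma 0 of 7 passed in either line, and 0% of the 19122 genes did. At an unadjusted p under 0.05 there were 2 of the 7 in AsPC-1 (SLC25A32 and ENPP1) and 1 in PANC-1 (BLVRB), against 11.3% and 10.8% of all genes. Over both lines there was 1 (SLC25A32), against 7.1%, and for the difference between the lines 2 (BLVRB and ENPP1), against 11.6%. These unadjusted counts did not hold when some single libraries were left out. The AsPC-1 count was 0 without any 1 of the PANC-1 libraries, and when only AsPC-1 libraries were fitted. In those fits SLC25A32 and ENPP1 stayed at 0.24 and -0.25 in AsPC-1, and only the estimate of the spread changed. Without the AsPC-1 library given vehicle or roseoflavin they were at 0.33 and -0.33. Without the one given trametinib or both they were at 0.14 and -0.18. The PANC-1 count and the count for the difference between the lines were 0 without the PANC-1 library given vehicle or roseoflavin. The count over both lines was 0 without the AsPC-1 library given both, or the PANC-1 library given vehicle or both. It was 2 without the AsPC-1 library given vehicle. The median difference of the 7 was -0.01 in AsPC-1 (3 higher, 4 lower; all genes -0.03) and 0.01 in PANC-1 (4 higher, 3 lower; all genes 0). Values over 19122 genes were also simulated with the estimated spread of these libraries. In PANC-1 19.4% of genes given a difference of 0.5 were recovered and 69.7% of those given 2. For AsPC-1 the shares were 13.4% and 75.8%, and for the difference between the lines in this response 0% and 47.0%. The spread was estimated with 2 residual degrees of freedom and taken as the true one, so these shares are rough.

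**Figure D4:**
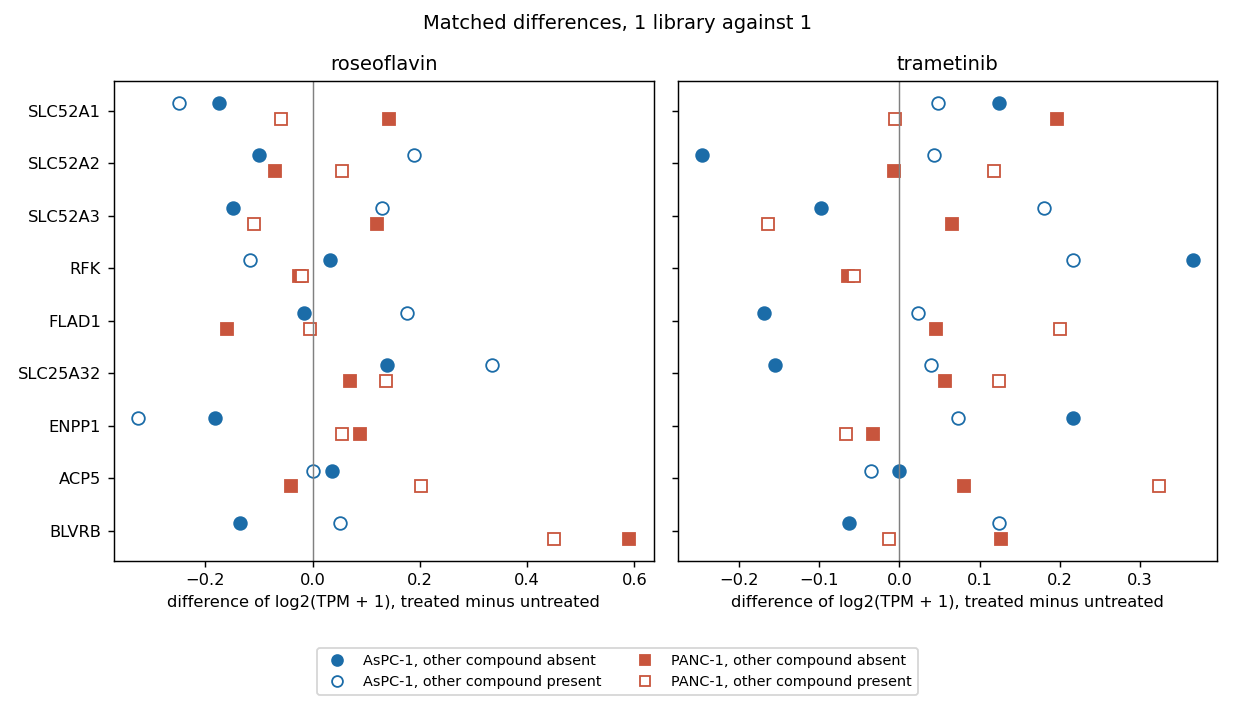
Difference of log2(TPM + 1) between 1 treated and 1 untreated library (x axis) for each of the 9 genes (y axis), for roseoflavin (left) and trametinib (right), with circles for AsPC-1 and squares for PANC-1, filled where the other compound was absent and open where it was present. BLVRB in PANC-1 lay at 0.59 and 0.45 for roseoflavin, RFK in AsPC-1 at 0.37 and 0.22 for trametinib, and SLC25A32 above 0 in all 4 pairs for roseoflavin.

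With trametinib, RFK gave the widest separation. In AsPC-1 it was at 7.53 TPM with trametinib against 5.62 TPM with vehicle, and at 6.87 TPM with both against 5.77 TPM with roseoflavin, ratios of 1.34 and 1.19. In PANC-1 it was at 15.02 against 15.7 TPM and at 14.8 against 15.4 TPM, ratios of 0.954 and 0.959. Libraries with and without trametinib did not overlap in either line. The fitted difference was 0.29 in AsPC-1 (SE 0.0607, limma adjusted p 0.280) and -0.06 in PANC-1 (SE 0.0607, adjusted p 1), and their difference was -0.35 (SE 0.0858, adjusted p 0.496). None passed. STK24 (Pearson r 0.990), STK26 (0.990) and SEC62 (0.987) followed the pattern of RFK most closely over the 8 libraries.

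FLAD1 in PANC-1 was at 29.6 and 29.5 TPM with trametinib against 28.7 and 25.6 TPM without it. It too did not overlap there. In AsPC-1 FLAD1 was at 15.1 and 17.2 TPM with trametinib against 17.1 and 16.9 TPM. MED24 (Pearson r 0.980), TRAPPC4 (0.965) and FIBP (0.954) were most like FLAD1, and BCS1L (0.974), NUBP2 (0.972) and NFIC (0.972) most like SLC52A2. Of the 7 tested genes 1 did not overlap in AsPC-1 (37.3% of all genes) and 2 in PANC-1 (27.8% of all genes). In limma 0 of 7 passed for trametinib in either line and 0% of all genes did. At an unadjusted p under 0.05 there was 1 (RFK) in AsPC-1, against 14.1% of all genes, and 0 in PANC-1, against 4.81%. Over both lines there was 0, against 4.91%, and for the difference between the lines 1 (RFK), against 9.7%. The AsPC-1 count was 0 without any 1 of the PANC-1 libraries, and when only AsPC-1 libraries were fitted. In those fits RFK stayed at 0.29 in AsPC-1, and only the estimate of the spread changed. Leaving out single AsPC-1 libraries, it ranged from 0.22 to 0.37. The count for the difference between the lines did not hold without a PANC-1 library either. Leaving out any single library, that difference ranged from -0.43 to -0.28 for RFK. Of the 7 genes 0 were higher and 0 lower with trametinib in all 4 matched pairs, as 9.66% and 4.54% of all genes were. The AsPC-1 median was 0.03 (all genes 0.02), the PANC-1 median 0.06 (all genes 0.01).

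For both compounds against vehicle, 1 library against 1 and with no test, BLVRB stood at 1.51 times in PANC-1 and 0.992 times in AsPC-1. RFK stood at 1.22 times in AsPC-1 and 0.941 times in PANC-1, and SLC25A32 at 1.14 and 1.15 times. Among the 7 genes 0 differed by 2-fold or more on the TPM + 1 scale in any of the 6 comparisons of a treated library with its vehicle. With roseoflavin, trametinib and both, 2.33%, 2.47% and 2.38% of the 19122 genes did so in AsPC-1, then 2.42%, 2.69% and 2.77% in PANC-1. These comparisons share the vehicle library of their line.

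Other genes that split, release or export riboflavin and its cofactors were taken from a list of 10, of which 7 passed the filter. For the difference between the lines 2 passed higher and 4 lower in PANC-1, and 6 of 7 is near the 83.8% of all genes that passed (62.3% higher, 21.5% lower). ABCG2, an efflux pump that exports riboflavin, was at 56.2 to 62.5 TPM in AsPC-1 and 7.43 to 8.17 TPM in PANC-1 (-2.76, SE 0.0432, limma adjusted p 1.38e-08). Both the uptake carrier SLC52A2 and this exporter were thus higher in AsPC-1. ALPP, the placental alkaline phosphatase, was at 43.4 to 63.0 TPM in AsPC-1 and 7.96 to 9.20 TPM in PANC-1 (-2.45, SE 0.105, adjusted p 1.07e-06). ALPL, the tissue-nonspecific alkaline phosphatase, was listed at 0 in every AsPC-1 library, against 1.57 to 1.91 TPM in PANC-1. It met the filter through PANC-1 alone, so its place among the 2 that passed higher is no separate support. ACP1, a cytosolic phosphatase, was at 63.8 to 65.2 and 42.0 to 47.5 TPM (adjusted p 2.88e-05). None of the 7 passed for roseoflavin, where ALPP in AsPC-1 went from 44.1 to 56.2 TPM without trametinib and from 43.4 to 63.0 TPM with it (limma adjusted p 0.380).

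Genes acting on extracellular nucleotides and pyrophosphate, as ENPP1 does, formed a list of 10 that shares ENPP3, NT5E, ALPL and ALPP with the one above. Of these 6 passed the filter, and 3 were higher and 2 lower in PANC-1 in limma. ALPL is among the 3 and met the filter through PANC-1 alone. NT5E, which makes adenosine from AMP, was at 68.6 to 76.0 TPM in AsPC-1 and 118 to 141 TPM in PANC-1 (0.85, SE 0.0724, adjusted p 3.47e-05). Of 11 carriers and receptors of other vitamins and cofactors 8 passed the filter and all 8 were called, 6 higher and 2 lower in PANC-1. SLC25A26 was among the 6 and met the filter through PANC-1 alone, at 1.20 to 1.41 TPM against 0.631 to 0.786 TPM in AsPC-1. SLC46A1, a folate carrier, differed by 1.22 (limma adjusted p 1.59e-06) and CD320, the receptor for vitamin B12 on its carrier protein, by 1.09 (adjusted p 5.01e-06), while SLC19A1, the reduced folate carrier, differed by -0.83 (adjusted p 1.95e-05). Both counts stand beside 83.8% of all genes that passed, 62.3% higher and 21.5% lower. The median of the 8 was 0.50, next to 0.55 for all genes, and -0.14 for the 7 riboflavin genes.

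The users of the cofactors were represented by 23 flavoenzymes, all of which passed the filter. After roseoflavin in PANC-1 13 (56.5%) were higher and 10 lower, with a median of 0.04. Of all genes 48.9% were higher there, with a median of 0. None of the 23 passed in limma while 8 had an unadjusted p under 0.05, as did 10.8% of all genes. TXNRD1, thioredoxin reductase, was at 107 and 107 TPM without and 171 and 183 TPM with roseoflavin (0.72, SE 0.0522, adjusted p 0.221). ERO1A, which oxidises thiols in the endoplasmic reticulum, was at 94.5 and 94.5 TPM without and 136 and 141 TPM with it (0.54, SE 0.121, adjusted p 0.397). In AsPC-1 11 (47.8%) were higher and 12 lower, with a median of -0.005, where 38.9% of all genes were higher (median -0.03). Of the 23 there, 0 passed and 4 had an unadjusted p under 0.05, as did 11.3% of all genes. TXNRD1 there was at 154 and 179 TPM without and 195 and 207 TPM with roseoflavin, and ERO1A at 107 and 128 TPM without and 98.8 and 86.2 TPM with it.

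Folate genes, most of them mitochondrial, formed a list of 10, all tested. Of these ALDH1L2 and GLDC met the filter through PANC-1 alone. After roseoflavin in PANC-1 9 were higher, as were 48.9% of all genes, with a median of 0.07 (all genes 0). In limma 0 passed and 3 had an unadjusted p under 0.05, as did 10.8% of all genes. MTHFD2, an enzyme of mitochondrial folate metabolism, was at 56.4 and 56.8 TPM without and 73.5 and 74.5 TPM with roseoflavin (0.38, SE 0.0463, adjusted p 0.261). SHMT2, which feeds it from serine, was at 53.0 and 52.1 TPM without and 57.7 and 58.4 TPM with it (0.14, adjusted p 0.406). In AsPC-1 7 of the 10 were higher, as were 38.9% of all genes, with a median of 0.05 (all genes -0.03). The 7 include GLDC, listed in AsPC-1 at 0.025 TPM with roseoflavin and at 0 in the other libraries. ALDH1L2, at most 0.052 TPM in AsPC-1, was also near the floor. There 0 had an unadjusted p under 0.05, against 11.3% of all genes, and MTHFD2 lay between 11.4 and 12.4 TPM in all 4 libraries.

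**Figure D5:**
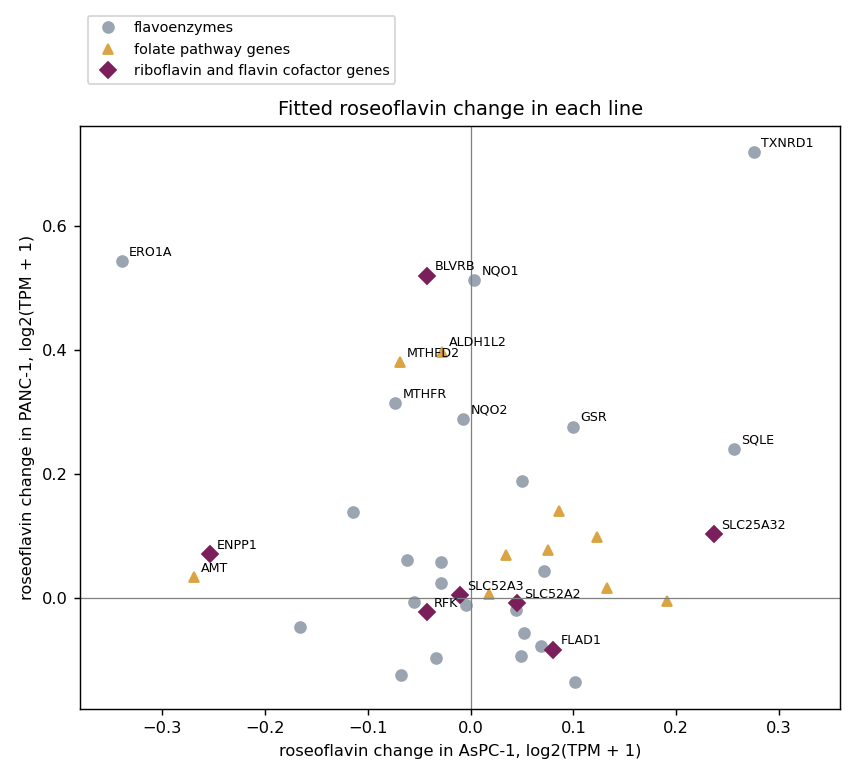
Fitted roseoflavin difference in AsPC-1 (x axis) and in PANC-1 (y axis) on the log2(TPM + 1) scale, with diamonds for the 7 tested riboflavin and flavin cofactor genes, circles for 23 flavoenzymes and triangles for 10 folate pathway genes. BLVRB lay at 0.52 in PANC-1 and -0.04 in AsPC-1, near ERO1A and below TXNRD1 on the PANC-1 axis. SLC52A2, SLC52A3, RFK and FLAD1 lay between -0.08 and 0.08 on both axes.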

How the data were processed

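Spheroid RNA from 8 libraries was sequenced from strand-keeping, polyA-selected libraries (TruSeq stranded mRNA kit, per the labels' protocols). The authors deposited a single table of TPM per gene, per the file headers. STAR 2.7.3a, HTSeq 2.0.2 and hg38 are named in the submitters' processing notes without their roles. The annotation is not given in the sources used here. Blank rows (985926) were dropped, and 62649 genes remained.

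Samples were grouped by line and treatment in their titles. The 19122 genes that reached 1 TPM in 2 libraries or more were tested on log2(TPM + 1), which understates changes of low genes, with limma 3.58.1 in R 4.3.3 (eBayes with trend, Benjamini-Hochberg). Line differences and effects over both lines came from an additive model (4 residual degrees of freedom), and effects per line from a model with both compounds nested in line (2 residual degrees of freedom). Both were tested on simulated data with known changes. Named genes were the 9 members and, per list, up to 4 that passed or else the 2 largest differences with a mean of at least 5 TPM. A few alternatives changed the pseudocount, filter, scaling or libraries. Members and lists were chosen with earlier results of these data known. Gene overlaps come from GENCODE release 29 and promoters from RefSeq, both on GRCh38.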

Additional observations from a re-analysis of the deposited data

Results flagged for a closer look

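Among 18 sets of 4 libraries (9 genes in 2 lines), 2 held a value far from the other 3. Chance gives about 1 in 20 for 4 values of the same kind, but here the 4 are different treatments. FLAD1 in AsPC-1 was at 15.07 TPM with trametinib and between 16.9 and 17.2 TPM in the other libraries. ACP5 in AsPC-1 was at 0.025 TPM with roseoflavin and listed at 0 in the other 3, where any value above 0 would have been flagged.

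In 3 cases both pairs of one line went up and both of the other went down. The PANC-1 minus AsPC-1 difference, tested with limma, was -0.35 for RFK with trametinib (adjusted p 0.496), 0.33 for ENPP1 with roseoflavin (adjusted p 0.403) and -0.19 for ENPP1 with trametinib (adjusted p 0.595), and none passed.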

How the results depend on the processing

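Alternatives were a pseudocount of 0.1, no filter on low values, a mean of at least 10 TPM, quantile normalization, TPM rescaled without mitochondrial transcripts, each line fitted alone, and leaving out each library. For the line difference the number of genes passing was 16027, and 8388 of 9368 under the mean of at least 10 TPM, which tests fewer genes. Its share higher in PANC-1 was 74.4% as deposited, 60.9% without mitochondrial transcripts and 52.6% after quantile normalization. Of the riboflavin genes 6 of 7 tested passed, and 4 of 5 under the mean of at least 10 TPM. With no filter on low values 8 of 9 did, beside 18807 of 33423 genes in all. Without mitochondrial transcripts 7 of 8 did, beside 16112 of 20467. These include SLC52A1, which met the filter there through PANC-1. Leaving out single libraries, 6 or 7 of the 7 tested genes passed. ENPP1 turned to -0.14 after quantile normalization. Leaving out single libraries, SLC25A32 ranged from -0.20 to -0.10 for the line difference and passed without AsPC-1 trametinib (adjusted p 0.00378), and BLVRB with roseoflavin in AsPC-1 ranged from -0.136 to 0.0516, while its PANC-1 value ranged from 0.45 to 0.59. For both compounds, in each line and over both, 0 genes passed under every alternative run. For BLVRB with roseoflavin in PANC-1 the adjusted p ranged from 0.134 to 0.619 over all alternatives. Of 566 values of the 43 other pairs of a gene and a comparison, 88 changed sign and 0 changed a call. No paired analysis was possible because the labels give no replicate numbers and each group has 1 library. TPM keep no depth, so counting error is unknown.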
